A study of Rattus norvegicus with 9 samples.

Results

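Axon guidance genes encode the ligands and receptors that steer growing axons: Eph receptors and ephrins, semaphorins with their plexin and neuropilin receptors, Slits and Robos, and netrins with the receptors Dcc, Neo1 and Unc5. They were taken here as every gene whose single symbol on the array names a member of one of these families. This gave 71 of the 22093 genes with a single symbol, 37 ligands and 34 receptors, each read from its brightest row. The rule used names only, not measured values.

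Gene expression was measured with 9 Clariom D arrays, 3 for each of 3 groups of male rats described as healthy, with strain and age not given in the sources used here. Hp_TFS is bilateral hippocampus of rats given transcranial focal stimulation (TFS) at 300 Hz and 50 mA for 5 min, taken 4 h later. Hp_Sham is bilateral hippocampus, and Cx_Sham bilateral parietotemporal cortex, of sham rats, which were handled in the same way without current. No cortex of stimulated rats was analysed here, and the labels do not say whether each array is a separate animal. The p-values therefore set group differences only against the spread between these arrays, which may be technical. The design asks which genes differ after stimulation in the hippocampus and between hippocampus and cortex of sham rats.

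In development, a ligand on a cell or in the matrix binds receptors on the growth cone, the moving tip of an axon, and local remodelling of actin turns it toward or away from the source. Ephrins and Eph receptors act at cell contacts, Slits and most secreted semaphorins repel, and netrins attract through Dcc and repel through Unc5. Many of these genes stay on in the adult brain, where they are known from synapses, dendritic spines and the layered inputs of the hippocampus.

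Values are log2 array signals. A mean over all 9 arrays under 7.57, the 95th percentile of the negative control probe sets, is called within the background range. Of the 71 genes 30 lay above it and 41 within it. Within that range a difference gives the direction and size of the signal change and not the ratio of transcript. The same holds for Nrp1, Nrp2, Epha7, Dcc, Slit2, Unc5b and Unc5c between the regions. These count as above the range, but their sham cortex means lay under 7.57. All 71 passed the filter on signal (a mean of at least 4.99). The lowest was Sema3a, with a mean of 5.38, followed by Epha1 with 5.41, and none lay just outside. Summarisation left 28 of the genes with 1 value shared between at least 3 arrays, and Sema3b and Sema4g read 6.25 and 6.29 on all 9, so these 2 carry no information on any difference. The rows for Plxnb2 and for a second Robo1 cluster name several genes and were left out. The distance from negative to positive controls, a measure of signal over background, was at least 3.945 log2 units on the TFS arrays, 3.73 to 3.96 on sham hippocampal arrays and 3.67 to 3.92 on cortical arrays. The sham arrays numbered 1, from hippocampus and from cortex, had the smallest distance in their groups, and counts are also given without both.

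Promoter sequences of the genes with the largest differences between the regions, 2 higher and 2 lower in hippocampus, show the kind of start site these genes have. They are those with 1 promoter entry in the RefSeq table (build GRCr8), which listed promoters for 56 of the 71 genes, and were chosen after the differences were seen. Each is the 250 bases before the start of the gene, read 5′ to 3′ on the strand of the gene, with CG dinucleotides in capitals.
Epha6 (chr11:53226534-53226783, plus strand): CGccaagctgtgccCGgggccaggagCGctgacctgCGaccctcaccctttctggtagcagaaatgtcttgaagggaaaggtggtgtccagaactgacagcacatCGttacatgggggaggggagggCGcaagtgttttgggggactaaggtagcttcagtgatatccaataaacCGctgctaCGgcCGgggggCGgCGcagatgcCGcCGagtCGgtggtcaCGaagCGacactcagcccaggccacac
Nrp2 (chr9:71617004-71617253, plus strand): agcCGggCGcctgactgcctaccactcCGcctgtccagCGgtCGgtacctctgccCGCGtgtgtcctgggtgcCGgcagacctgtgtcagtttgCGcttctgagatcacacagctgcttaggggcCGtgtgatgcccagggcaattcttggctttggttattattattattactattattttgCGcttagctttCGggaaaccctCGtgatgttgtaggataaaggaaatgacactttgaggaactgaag
Efna5 (chr9:110042188-110042437, minus strand): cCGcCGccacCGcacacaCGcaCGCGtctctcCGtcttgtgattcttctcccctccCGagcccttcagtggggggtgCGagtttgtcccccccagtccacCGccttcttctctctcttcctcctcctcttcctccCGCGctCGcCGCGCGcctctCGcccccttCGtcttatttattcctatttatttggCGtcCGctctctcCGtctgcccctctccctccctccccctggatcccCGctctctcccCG
Efnb2 (chr16:87484965-87485214, plus strand): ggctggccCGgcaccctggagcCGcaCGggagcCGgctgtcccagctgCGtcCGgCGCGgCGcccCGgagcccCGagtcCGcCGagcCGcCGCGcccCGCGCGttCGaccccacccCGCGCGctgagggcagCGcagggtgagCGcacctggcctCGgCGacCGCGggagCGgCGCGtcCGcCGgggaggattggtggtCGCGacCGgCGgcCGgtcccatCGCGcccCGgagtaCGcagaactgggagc
These windows hold 16 CG dinucleotides in Epha6, 13 in Nrp2, 23 in Efna5 and 43 in Efnb2. The median was 14 over the 55 guidance genes with 1 promoter, against 5 over all 33469 promoters of the table, and the median GC content was 62.8%, against 51.2%. The letters GGGCGG on either strand, the core of the GC box bound by Sp-family factors, were found in 30 of the 55 (54.5%), against 30.5% of all promoters. CAGATG, an E-box read by neuronal bHLH factors, was found in 4 of the 55 (7.3%), against 14.0% of all promoters. The Epha6 window has 1 match of each. Unlike the 55, the promoters of the whole table were not limited to genes with 1 promoter or to genes tested here. These medians and shares are therefore not read as a trait particular to guidance genes. A match is a description of letters and not a site.

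Hippocampus and cortex of sham rats differed widely in guidance genes. With limma, 29 of 71 genes (40.8%) passed the test at an adjusted p under 0.05, against 12.4% of all 15522 genes tested. Of these 22 were higher in hippocampus (5.99% of all genes were) and 7 were lower (6.46% of all genes). Those higher included Epha6, Epha7, both neuropilins, Dcc and all 3 Slits, and those lower included the ligands Sema3a, Efna5, Efnb2 and Sema3f. The median size of the difference, whatever its sign, was 0.19 log2 units over guidance genes and 0.05 over all genes. Above the background range 18 of 30 were higher in hippocampus and 1 was lower, where 21.6% of all such genes passed in either direction (11.2% higher and 10.5% lower). Among the 41 within the range 4 were higher and 6 lower, where 8.74% of all such genes passed. Most of the 9 arrays behind that mean are hippocampal, so a gene higher in hippocampus lies above the range more readily. Nrp2 counted as above it with a sham cortex mean of 7.15, and Efnb2 as within it with 7.79. The directions on either side of the cutoff are thus partly set by its definition. Receptors passed in 17 of 34 cases (14 higher, 3 lower) and ligands in 12 of 37 (8 higher, 4 lower), and the difference between these shares was not tested. Sema3a, Epha6, Nrp2, Efna5 and Epha7 passed with more than a 2-fold difference of signal, as 0.747% of all genes did. The 3 arrays of each region did not overlap for 38 of the 71 genes, against 24.1% of all genes. In a bulk sample, fewer cells of a type and less RNA per cell cannot be told apart.

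Hippocampal and cortical sham arrays of one number deviated together across genes, so the number was also used as a block. As a fixed block on the 6 arrays compared, it left 17 genes past the test (13 higher and 4 lower). Of these 16 were among the 29, and 6.33% of all genes passed. Those 6 arrays without a block gave 21, with Efnb3, Epha4, Ntng2, Plxnb1, Robo1, Robo2, Sema3c and Unc5b lost. As a random block on all 9 arrays, the number gave 36, among them all 29. Below, the block means the fixed one. Without both sham arrays numbered 1, 19 passed (13 higher and 6 lower), 18 of them among the 29, against 8.56% of all genes. The calls lost under the fixed block or without both of those arrays are given with each gene.

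**Figure D1:**
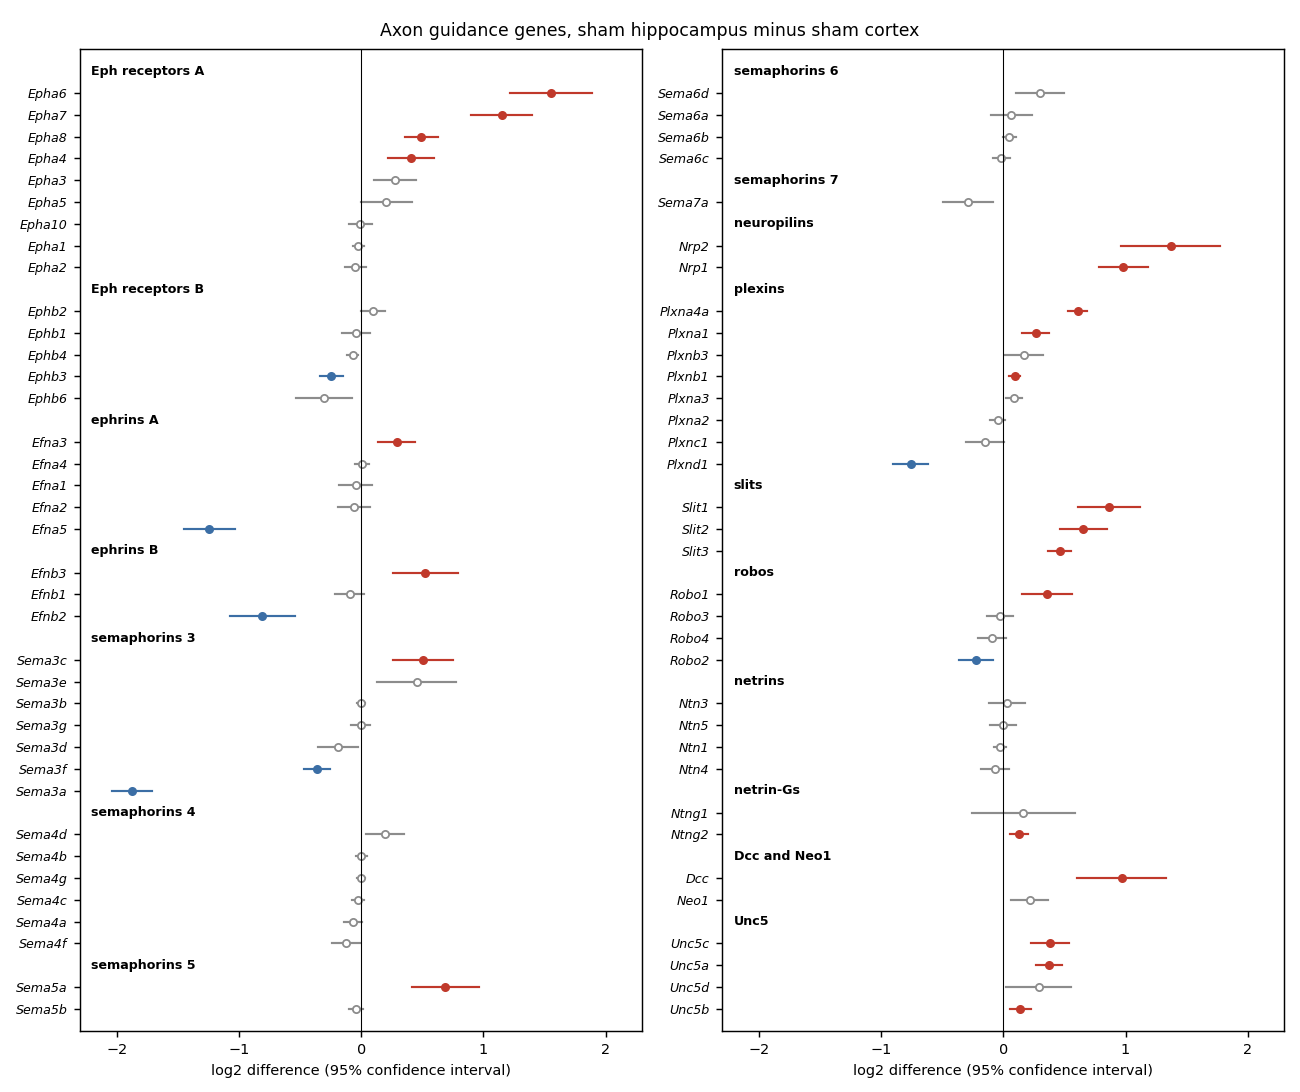
Log2 difference of sham hippocampus minus sham cortex for the guidance genes (n = 3 arrays a group), grouped by family, with the 95% confidence interval of limma. Filled red points are the 22 genes past the test and higher in hippocampus, filled blue points the 7 lower and open points the rest, from Epha6 at 1.55 to Sema3a at -1.88.

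The Eph receptors are receptor tyrosine kinases, class A binding mainly ephrins of class A, which are anchored by lipid, and class B binding transmembrane ephrins of class B. Of 9 EphA receptors 4 were higher in hippocampus and 0 were lower. Epha6 measured 9.30, 9.28 and 9.58 in TFS hippocampus, 9.38, 9.43 and 9.45 in sham hippocampus and 7.54, 8.11 and 7.96 in sham cortex. Every hippocampal array was over 1 unit above every cortical array, a 2.94-fold difference between the sham groups (log2 1.55, SE 0.14, limma adjusted p = 0.000553). Epha7 measured 8.62, 8.57 and 8.77 in TFS hippocampus, 8.45, 8.48 and 8.83 in sham hippocampus and 7.34, 7.52 and 7.45 in sham cortex. It was 2.22-fold higher in sham hippocampus (log2 1.15, SE 0.11, limma adjusted p = 0.000598). Epha4, the brightest EphA row and a receptor that also binds ephrins B, measured 9.72, 9.73 and 9.86 in TFS hippocampus, 9.66, 9.66 and 9.81 in sham hippocampus and 9.45, 9.15 and 9.30 in sham cortex. The sham regions did not overlap and differed by 0.41 (SE 0.08, limma adjusted p = 0.0160). That call was lost under the replicate block (adjusted p = 0.0893), with the 6 arrays compared and no block (0.0583) and without hippocampal sham array 3 (0.0610). Epha8, within the background range, differed by 0.49 (SE 0.06, limma adjusted p = 0.00152), with 6.43, 6.36 and 6.44 in sham hippocampus and 5.89, 5.83 and 6.03 in sham cortex. Epha3 (0.28, adjusted p = 0.0507) and Epha5 (0.21, adjusted p = 0.201) had positive differences that did not pass, and Epha1, Epha2 and Epha10 lay between -0.05 and -0.01.

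Of 5 EphB receptors 0 were higher and 1 was lower. Ephb3, within the background range, had 6.76, 6.72 and 6.74 in TFS hippocampus, 6.74, 6.72 and 6.70 in sham hippocampus and 7.05, 6.88 and 6.96 in sham cortex. This was a difference of -0.24 (SE 0.04, limma adjusted p = 0.00777) between sham regions that did not overlap, and the block took the adjusted p to 0.0684. Ephb6, the brightest EphB row and one without kinase activity, read 7.75, 7.69 and 7.59 in sham hippocampus and 8.03, 7.75 and 8.17 in sham cortex. Hippocampal array 1 and cortical array 2 had the same value, and the difference of -0.31 did not pass (limma adjusted p = 0.0930, 95% interval -0.54 to -0.08). Ephb1, Ephb2 and Ephb4 differed by -0.04, 0.10 and -0.07, none past the test.

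Ephrins, the ligands, split by member. Efna5, a ligand of several EphA receptors that is known from topographic maps of hippocampal projections, measured 6.06, 5.94 and 5.90 in TFS hippocampus, 6.05, 6.06 and 6.03 in sham hippocampus and 7.43, 7.07 and 7.37 in sham cortex. All hippocampal arrays lay over 1 unit below all cortical ones (log2 -1.24, SE 0.09, limma adjusted p = 0.000231), at signals within the background range. A second, dimmer Efna5 row differed by -0.22, so the mean of both rows gave -0.73 (adjusted p = 0.00101). Efnb2, a transmembrane ephrin of neurons and arterial endothelium, measured 7.16, 6.96 and 6.88 in TFS hippocampus, 6.93, 7.12 and 6.89 in sham hippocampus and 7.61, 7.76 and 7.99 in sham cortex. It was lower in sham hippocampus, by a log2 difference of -0.81 (SE 0.11, limma adjusted p = 0.00380), with the regions apart and a mean within the background range. Under the block the adjusted p was 0.0563. Endothelial markers were also at a lower mean level on sham hippocampal arrays, 7.22 to 7.34, against 7.49 to 7.54 on cortical ones, with 1 of 7 past the test. Of these 7 markers 5 lay within the background range. Their part in the Efnb2 difference was not tested.

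Efnb3, the brightest ephrin B row and a ligand that repels axons at the midline, went the other way, with 8.16, 8.11 and 8.07 in sham hippocampus and 7.38, 7.87 and 7.51 in sham cortex. The regions did not overlap and the difference was 0.52 (SE 0.11, limma adjusted p = 0.0226). Its adjusted p was 0.114 under the block, 0.130 without both sham arrays numbered 1 and 0.0563 to 0.0750 without cortical array 1 or 3 or any one hippocampal sham array. Efna3, the brightest ephrin A row, differed by 0.29 (limma adjusted p = 0.0244), with 8.42, 8.29 and 8.29 in sham hippocampus and 7.95, 8.07 and 8.10 in sham cortex. That call was lost under the block (adjusted p = 0.127), without both arrays numbered 1, and without cortical array 1 or any one hippocampal sham array (0.0557 to 0.0766). Efna1, Efna2, Efna4 and Efnb1 lay between -0.09 and 0.01 and did not pass.

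**Figure D2:**
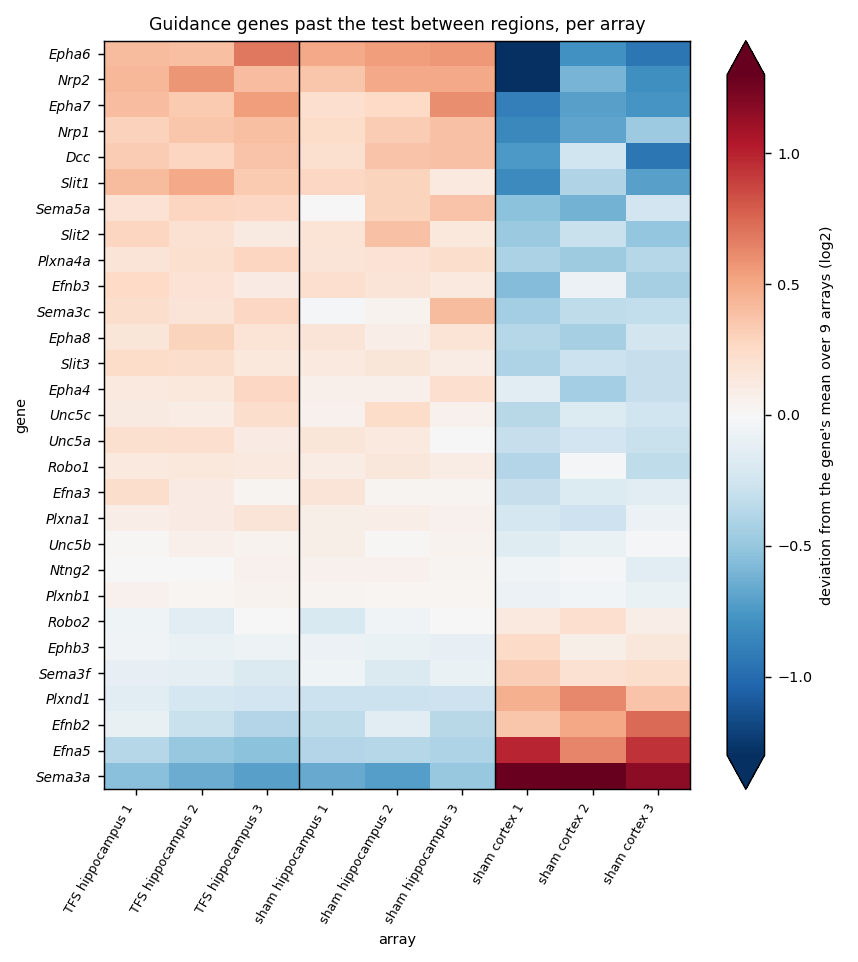
Log2 signal on each array of the guidance genes past the region test, centred on the mean of each gene, with columns for TFS hippocampus, sham hippocampus and sham cortex (3 arrays each). Red is above and blue below that mean. Rows run from Epha6, highest in sham hippocampus over sham cortex (difference 1.55), to Sema3a, the lowest (-1.88).

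Neuropilins are the binding subunits for most secreted (class 3) semaphorins and signal with plexins. Both were higher in hippocampus. Nrp2, the subunit known for Sema3f, measured 8.50, 8.63 and 8.46 in TFS hippocampus, 8.43, 8.56 and 8.56 in sham hippocampus and 6.71, 7.46 and 7.27 in sham cortex. The difference between sham regions was 2.58-fold (log2 1.37, SE 0.17, limma adjusted p = 0.00220), and its SD of 0.39 in cortex was the largest of any guidance gene in any group. Nrp1, the subunit known for Sema3a, measured 8.35, 8.41 and 8.43 in TFS hippocampus, 8.29, 8.38 and 8.43 in sham hippocampus and 7.21, 7.37 and 7.57 in sham cortex. It was 1.97-fold higher in sham hippocampus (log2 0.98, SE 0.09, limma adjusted p = 0.000436), with no overlap.

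Among 7 class 3 semaphorins, 1 was higher and 2 were lower. Sema3a, a secreted repellent of cortical and hippocampal axons, measured 4.84, 4.73 and 4.67 in TFS hippocampus, 4.72, 4.66 and 4.89 in sham hippocampus and 6.66, 6.70 and 6.55 in sham cortex. This was the largest difference among the guidance genes in either direction (log2 -1.88, SE 0.07, limma adjusted p = 2.53e-05), with no overlap. All these signals lie within the background range, so the size of the transcript ratio is not known. Sema3f, also within it, had 5.87, 5.73 and 5.83 in sham hippocampus and 6.24, 6.12 and 6.15 in sham cortex, a difference of -0.36 (SE 0.05, limma adjusted p = 0.00240). Sema3c, within the background range and a class 3 semaphorin that can attract axons, had 7.002, 7.07 and 7.44 in sham hippocampus and 6.59, 6.69 and 6.70 in sham cortex. Its difference was 0.51 (SE 0.11, limma adjusted p = 0.0195), with an adjusted p of 0.0788 under the block, 0.0588 without both sham arrays numbered 1 and 0.0723 without cortical array 1. Sema3e, the brightest class 3 row, differed by 0.45 and did not pass (limma adjusted p = 0.0790). Sema3d and Sema3g were at -0.19 and -0.00.

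Among membrane semaphorins only 1 of 13 genes passed. Sema5a, which has both attractive and repulsive actions and is known from dentate granule cells in mice, measured 9.09, 9.19 and 9.17 in TFS hippocampus, 8.90, 9.19 and 9.27 in sham hippocampus and 8.37, 8.29 and 8.65 in sham cortex. It was 1.61-fold higher in sham hippocampus (log2 0.69, SE 0.12, limma adjusted p = 0.00837). Of 6 class 4 and 4 class 6 semaphorins 0 passed. Sema4d, the plexin B1 ligand and the brightest of class 4, differed by 0.20 (limma adjusted p = 0.111), and Sema6d, the brightest of class 6, by 0.30 (adjusted p = 0.0594). Sema7a, a lipid-anchored semaphorin, had 8.72, 8.77 and 8.90 in sham hippocampus and 9.24, 8.90 and 9.12 in sham cortex. Its difference of -0.29 did not pass (limma adjusted p = 0.0762).

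Plexins are the signalling receptors of semaphorins, and their inner domain acts on small GTPases. Of 8 plexins 3 were higher in hippocampus and 1 was lower. Plxna4a, the name the array gives to the row of Plxna4, a neuropilin partner, measured 8.87, 8.91 and 8.98 in TFS hippocampus, 8.87, 8.89 and 8.93 in sham hippocampus and 8.29, 8.24 and 8.33 in sham cortex. The difference was 0.61 (SE 0.03, limma adjusted p = 0.000104), with little spread in any group. Plxnd1, the receptor of Sema3e, known from blood vessels and from subsets of neurons, measured 6.84, 6.76 and 6.73 in TFS hippocampus, 6.71, 6.71 and 6.72 in sham hippocampus and 7.45, 7.61 and 7.35 in sham cortex. It was lower in sham hippocampus (log2 -0.76, SE 0.06, limma adjusted p = 0.000370), with a mean within the background range. The lower endothelial marker level given for Efnb2 moves with it too, and its part was not tested. Plxna1, another neuropilin partner, differed by 0.26 (limma adjusted p = 0.0115), with the call lost under the block (adjusted p = 0.0966) and without both sham arrays numbered 1 (0.104). Plxnb1, the Sema4d receptor and within the background range, differed by 0.09 (limma adjusted p = 0.0208), a call lost under the block (0.114), without both arrays numbered 1, and without cortical array 1 or 3 or any one hippocampal sham array (0.0506 to 0.0623).

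Slits are secreted repellents that bind Robo receptors, and all 3 were higher in hippocampus. Slit1 measured 9.37, 9.46 and 9.31 in TFS hippocampus, 9.24, 9.25 and 9.09 in sham hippocampus and 8.14, 8.58 and 8.26 in sham cortex. The difference between sham regions was 1.82-fold (log2 0.87, SE 0.11, limma adjusted p = 0.00213). Slit2 measured 7.88, 7.80 and 7.72 in TFS hippocampus, 7.78, 7.98 and 7.74 in sham hippocampus and 7.12, 7.32 and 7.10 in sham cortex, a difference of 0.66 (SE 0.08, limma adjusted p = 0.00234). Slit3 measured 8.66, 8.65 and 8.56 in TFS hippocampus, 8.55, 8.58 and 8.52 in sham hippocampus and 8.02, 8.14 and 8.12 in sham cortex. Its difference was 0.46 (SE 0.04, limma adjusted p = 0.000466), and 0.28 as the mean with a second, dimmer row. No sham hippocampal array overlapped a cortical one for any Slit.

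The Robos split. Robo1, the brightest, had 8.42, 8.46 and 8.41 in sham hippocampus and 7.94, 8.31 and 7.99 in sham cortex, a difference of 0.36 (limma adjusted p = 0.0361). Robo2 had 7.86, 8.01 and 8.05 in sham hippocampus and 8.18, 8.28 and 8.14 in sham cortex, a difference of -0.23 (SE 0.06, limma adjusted p = 0.0499). Both calls lie close to the threshold. Robo1 lost its call without any one array but cortical array 2 (adjusted p from 0.0647 to 0.117) and Robo2 without any one of the 9 (0.0590 to 0.117). Both also lost it under the block (0.109 for Robo1 and 0.120 for Robo2) and without both sham arrays numbered 1. Robo3 and the endothelial Robo4 differed by -0.03 and -0.09 and did not pass.

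**Figure D3:**
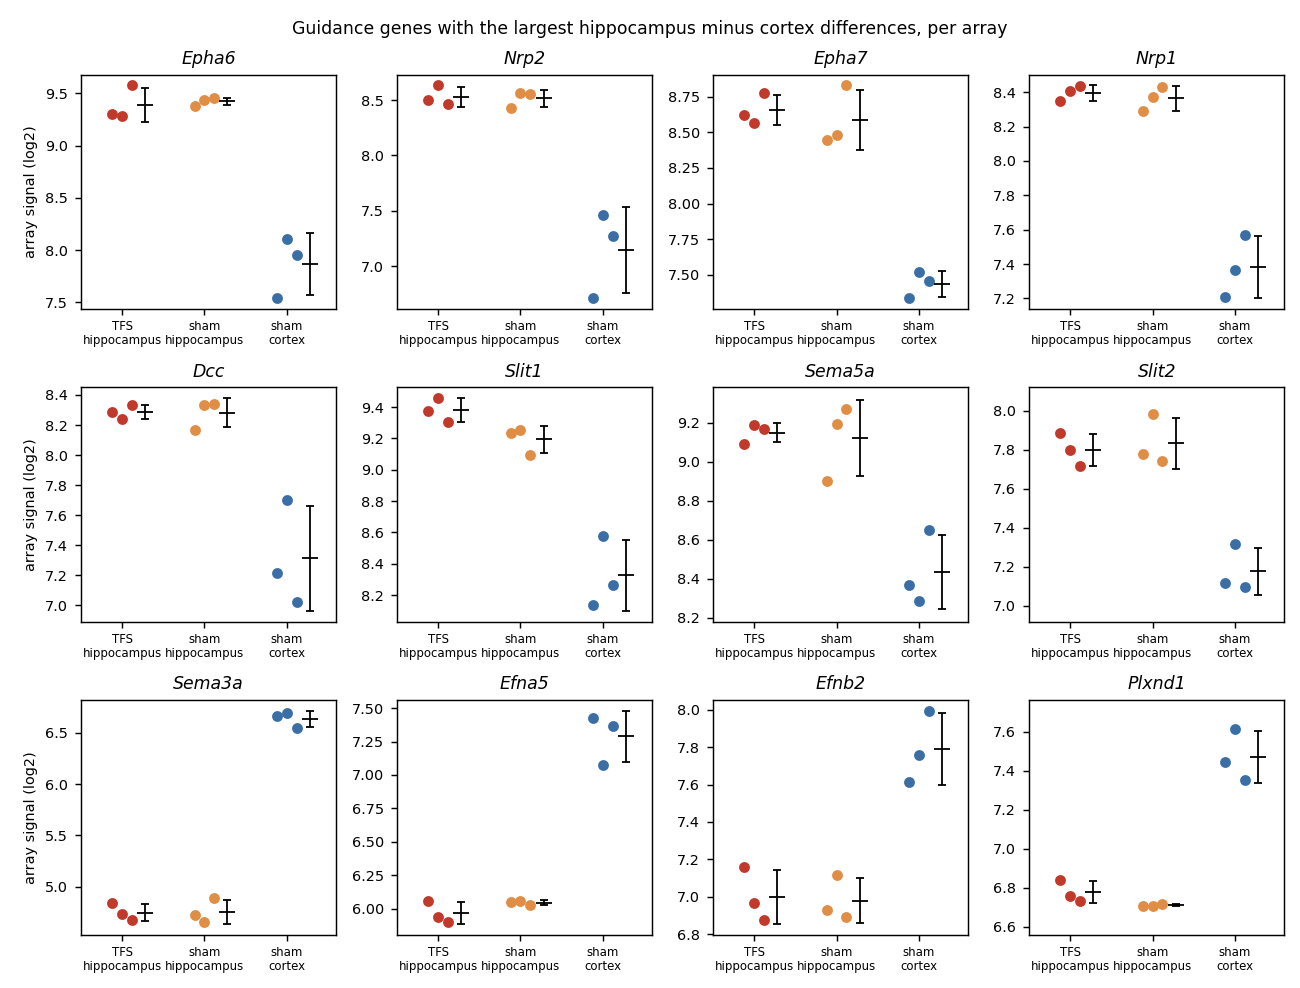
Log2 signal on every array for 12 guidance genes with large differences between the regions, with TFS hippocampus, sham hippocampus and sham cortex from left to right (3 arrays a group) and bars for the mean and SD. For Epha6, Nrp2 and Dcc all 6 hippocampal arrays lie above the cortical ones, and for Sema3a and Efna5 all 6 lie below.

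Netrins are secreted, laminin-related cues. All 4 were within the background range and lay between -0.07 and 0.03, none past the test. Ntn1, the brightest, differed by -0.03 (95% interval -0.07 to 0.02). Among their receptors, Dcc, which mediates attraction, measured 8.29, 8.24 and 8.33 in TFS hippocampus, 8.17, 8.33 and 8.34 in sham hippocampus and 7.21, 7.70 and 7.02 in sham cortex. It was 1.96-fold higher in sham hippocampus (log2 0.97, SE 0.16, limma adjusted p = 0.00647), with cortical array 2 well above the other two cortical arrays. The call was lost under the block (adjusted p = 0.0670) and without both sham arrays numbered 1 (0.0603), and the mean with a second, dimmer row gave 0.53 (0.00608). Neo1, a relative of Dcc that also binds repulsive guidance molecules, differed by 0.21 and did not pass (limma adjusted p = 0.0851).

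Of the 4 Unc5 receptors, which mediate repulsion, 3 were higher in hippocampus. Unc5a, the brightest, measured 9.16, 9.18 and 9.06 in TFS hippocampus, 9.11, 9.08 and 8.96 in sham hippocampus and 8.65, 8.71 and 8.66 in sham cortex, a difference of 0.37 (SE 0.05, limma adjusted p = 0.00188). Unc5c measured 7.87, 7.85 and 7.98 in TFS hippocampus, 7.81, 7.99 and 7.81 in sham hippocampus and 7.39, 7.58 and 7.49 in sham cortex. Its difference was 0.38 (SE 0.07, limma adjusted p = 0.00995), with an adjusted p of 0.0575 without both sham arrays numbered 1. Unc5b differed by 0.14 (limma adjusted p = 0.0479), a call lost under the block (0.180), without both arrays numbered 1 and without any one array but cortical array 3 (0.0755 to 0.129). Unc5d differed by 0.29 and did not pass (adjusted p = 0.159). Netrin-Gs are lipid-anchored relatives that act at synapses and do not bind Dcc. Ntng1, the brighter, differed by 0.16, did not pass (limma adjusted p = 0.618) and had an interval of -0.26 to 0.58. Ntng2 differed by 0.13 (adjusted p = 0.0445), a call lost under the block (0.103), without both arrays numbered 1 and without any one array but cortical array 2 or 3 (0.0611 to 0.131).

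Spread differed between the groups. The median SD over the guidance genes was 0.04 on TFS arrays, 0.05 on sham hippocampal arrays and 0.09 on cortical arrays, against 0.03, 0.05 and 0.05 over all tested genes. Cortical array 1 was the lowest of its group for 27 of the guidance genes (38.0%, against 35.4% of all tested genes) and cortical array 2 the highest for 27 (38.0%, against 26.6%).

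Genes that act with the guidance families were counted by list. Of 18 effectors of Eph receptors 3 were higher and 2 lower in sham hippocampus, with a median difference of 0.01. Ngef (ephexin), which acts downstream of EphA receptors, had 7.75, 7.71 and 7.86 in sham hippocampus and 9.03, 8.80 and 9.05 in sham cortex, a difference of -1.19 (SE 0.07, limma adjusted p = 0.000115). Vav3, which also acts downstream of Eph receptors and lies within the background range, had 6.65, 6.65 and 7.10 in sham hippocampus and 5.00, 5.27 and 5.41 in sham cortex, a difference of 1.57 (limma adjusted p = 0.000488). The 2 largest differences of this list had opposite signs. Of 20 semaphorin and plexin effectors 3 were higher and 3 lower (median -0.01). Rnd1, within the background range, encodes a protein that binds plexins and differed by -0.88 (limma adjusted p = 0.00148).

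Slit and Robo effectors had 5 of 12 genes higher and 2 lower (median 0.12). The heparan sulfate proteoglycan Gpc1, which binds Slits, differed by 0.57 (limma adjusted p = 0.00105). Srgap3, a GTPase activator that binds Robo, differed by 0.23 (adjusted p = 0.00390). Cables1, within the background range, went the other way, at -0.53 (limma adjusted p = 0.00135), as did Evl, at -0.21 (0.00808). Netrin and Dcc effectors had 2 of 14 higher and 2 lower (median 0.04). The kinase Ptk2b was at 0.67 and Trim9 at -0.22 (limma adjusted p = 0.000104 and 0.00289). Of 29 other cues and receptors 5 were higher and 6 lower (median 0.00), among them Boc, a hedgehog coreceptor within the background range, at -0.79 (limma adjusted p = 0.000492). Of 9 myelin-associated inhibitors and receptors 0 were higher and 2 were lower: Lingo1 at -0.40 and the Nogo receptor gene Rtn4r at -0.29 (limma adjusted p = 0.000785 and 0.0114). The share of all tested genes past the same test is the 12.4% given above.

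The tissue labels were checked against markers. Of 9 tested hippocampal markers 4 were higher in sham hippocampus and 0 lower, with Prox1 of dentate granule cells, within the background range, at 1.89, and 9 of 13 cortical markers were lower and 0 higher. Mean levels of several other cell types differed between the regions as well, mostly with few single markers past the test, which 12.4% of all genes passed. The mean log2 level of oligodendrocyte markers was 8.84 to 9.04 on sham hippocampal arrays, against 8.30 to 8.80 on cortical ones (1 of 7 higher). For oligodendrocyte precursor markers it was 7.70 to 7.72, against 7.53 to 7.66 (1 of 5 higher, Olig1), and for astrocyte markers 9.04 to 9.10, against 8.86 to 9.00 (1 of 8 higher, Gja1). For interneuron markers it was 8.02 to 8.17, against 8.51 to 8.65 (5 of 8 lower). Choroid plexus and ependyma markers were at 6.36 to 7.15, against 5.46 to 5.52, with 1 of 5, Ttr, past the test at 3.30. Meningeal and fibroblast markers were at 6.51 to 6.66, against 6.81 to 7.46, with 1 of 5 lower. In the choroid plexus list and in the meningeal list 5 of 6 markers lay within the background range. Microglia markers had 0 of 8 past the test and red blood cell markers 0 of 4. Neuron markers had 2 of 8 higher, with a median difference of 0.01. The part of these cell types in the guidance gene differences was not tested.

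No guidance gene passed the test after TFS. In hippocampus 4 h after stimulation, 0 of 71 genes passed with limma at an adjusted p under 0.05, where 0.0% of all genes did, and 0 had an unadjusted p under 0.05, against 5.19% of all genes. The log2 differences of TFS minus sham hippocampus ran from -0.08 (Efna5) to 0.19 (Slit1), with a median of 0.01 over guidance genes and 0.01 over all genes, and 44 lay above 0, 25 below and 2 at 0. A change of 1.5-fold up or down lay outside the 95% interval for 71 of 71 genes, and one of 1.2-fold for 56, against 99.2% and 87.5% of all genes. The intervals are too narrow where summarisation left equal values. The fit also takes its spread from all 9 arrays, so the cortical arrays enter the intervals and p-values of this comparison. On those arrays the median SD was 0.09 over guidance genes, against 0.05 over all tested genes. The shortfall from 5.19% is therefore not read as a result about the guidance genes. For 5 genes the 3 TFS arrays lay above all 3 sham arrays (Sema6b, Slit1, Plxnd1, Plxna3 and Plxna1) and for 0 below. Over all genes this held for 8.57% above and 1.2% below, or 9.77% in either direction.

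**Figure D4:**
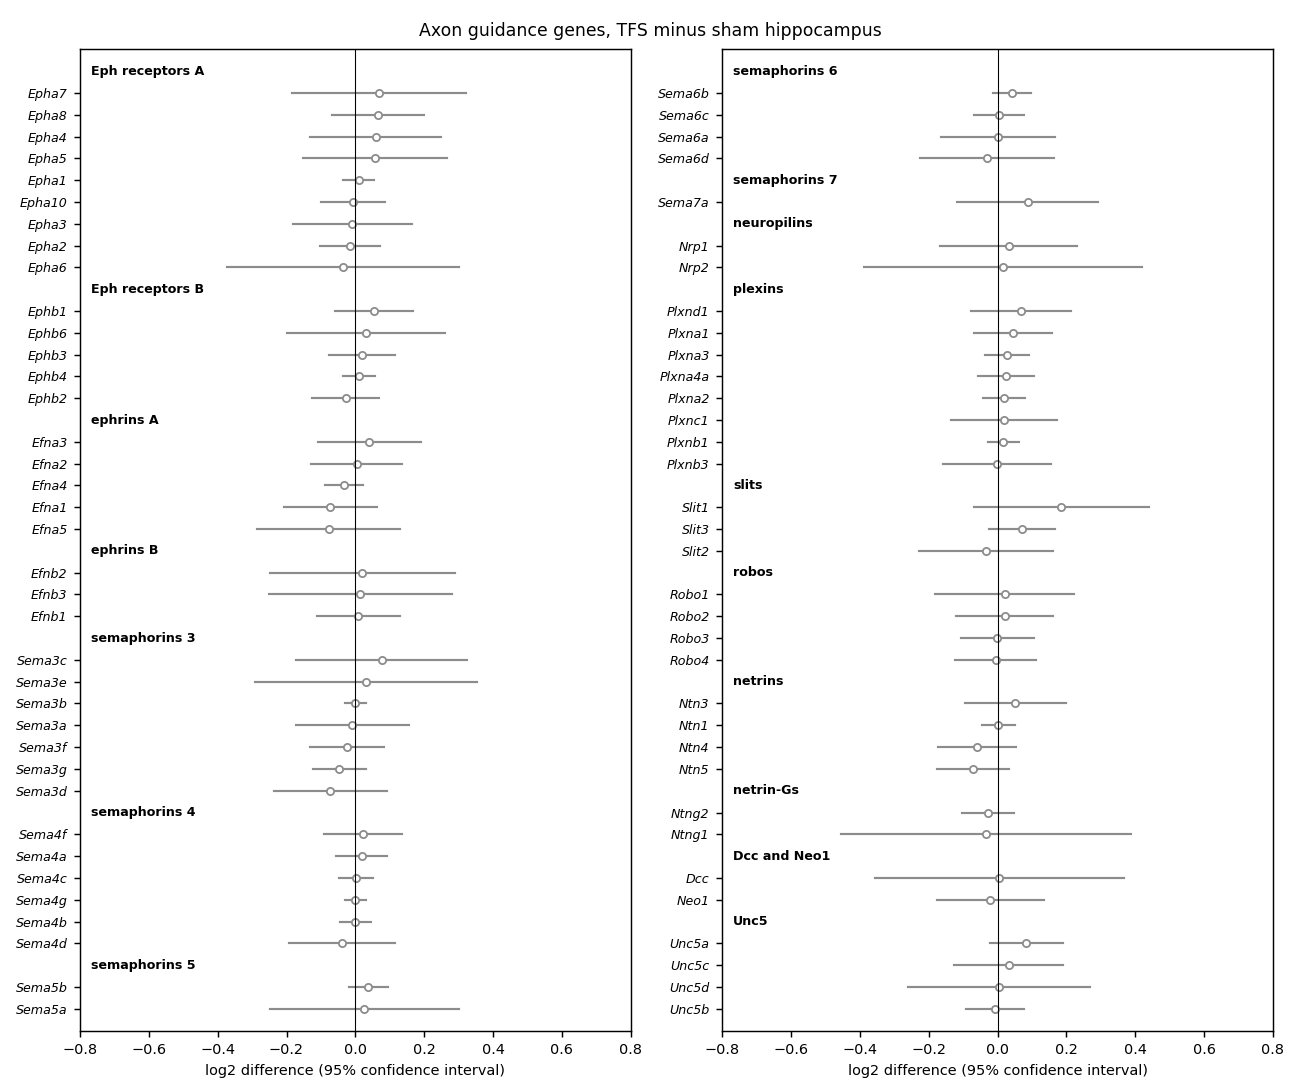
Log2 difference of TFS minus sham hippocampus for the 71 guidance genes (n = 3 arrays a group), with the 95% confidence interval of limma. All differences lie between -0.08 and 0.19, and none passes the test.

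Slit1 had the largest difference, with 9.37, 9.46 and 9.31 in TFS hippocampus and 9.24, 9.25 and 9.09 in sham hippocampus. The groups did not overlap, and the difference of 0.19 (SE 0.11, 95% interval -0.07 to 0.44) did not pass (limma adjusted p = 0.923). That SE includes the cortical arrays, with an SD of 0.23, against 0.08 in TFS and 0.09 in sham hippocampus. Among the other genes of smallest p, Unc5a differed by 0.08 (9.16, 9.18 and 9.06 in TFS, against 9.11, 9.08 and 8.96 in sham hippocampus), with overlapping groups. Sema6b, a transmembrane semaphorin, differed by 0.04, with 8.75, 8.76 and 8.76 in TFS and 8.71, 8.70 and 8.73 in sham hippocampus. The Slit3 difference was 0.07, with overlapping arrays, and that of Sema5b was 0.04.

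On the negative side, the differences of smallest p were those of Ntn5 (-0.07), Sema3g (-0.05), Efna4 (-0.03), Efna1 (-0.07) and Ntn4 (-0.06), all within the background range. Ntn4, a netrin of basement membranes, read 6.02, 6.02 and 5.84 in TFS hippocampus and 6.02 on all 3 sham hippocampal arrays, so its difference came from 1 TFS array. All 10 of these genes had the same limma adjusted p of 0.923. Genes that differed more than 2-fold between regions, and Dcc, had these TFS minus sham differences, with 95% intervals. Epha6 was at -0.04 (-0.37 to 0.30), Nrp2 at 0.02 (-0.39 to 0.42) and Epha7 at 0.07 (-0.18 to 0.32). Efna5 was at -0.08 (-0.285 to 0.13), Sema3a at -0.01 (-0.17 to 0.16) and Dcc at 0.01 (-0.36 to 0.37). Both comparisons use the same sham hippocampal arrays. In the lists of effectors, other cues and myelin-associated genes 0 genes passed after TFS with limma. Those with an unadjusted p under 0.05, to be read against 5.19% of all genes, were 2 of 18 Eph effectors, 1 of 20 semaphorin effectors, 0 of 12 Slit effectors, 1 of 14 netrin effectors, 2 of 29 other cues and 2 of 9 myelin-associated genes.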

How the data were processed

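Total RNA of rat brain was labelled with biotin (GeneChip WT Plus kit, per the labels' protocols) and hybridised to Clariom D arrays, 1 array a sample. The authors deposited log2 values, a single one for each transcript cluster. Per the submitters' processing notes RMA and limma were used, with no version or order. The genome build is not given in the sources used here. Of 70580 rows 1738 control rows were left out. Rows with 1 symbol gave 22093 genes (brightest row each). Those whose mean reached the median over all rows (4.99), 15522 genes, were tested.

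A model with a mean for each group and all 9 arrays was fitted in R 4.3.3 with limma 3.58.1 (lmFit and eBayes, 6 residual degrees of freedom). Tests were two-sided, with Benjamini-Hochberg adjustment over all genes tested and a threshold of 0.05. The script was tested on simulated data. With 3 against 3 arrays the smallest p of an exact test is 0.1. The number of arrays limits the precision.

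Genes named were up to 15 per direction past the region test with arrays apart, the 5 of smallest p per direction after TFS, the brightest of each family, and up to 4 per other list. Further members were named to complete the families, after their values were seen. The members, the 19 lists and the tests were chosen with earlier results of these data known. One of these lists is not reported here.

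Like-numbered sham hippocampal and cortical arrays correlated in their deviations from the group means at 0.416, 0.202 and 0.252 (unlike numbers -0.291 to 0.0604). Their numbers were therefore used to pair them in the alternative fits with a block, while the main fit is unpaired. The labels do not state a pairing, and part of this contrast is arithmetic, since deviations cancel within a group. TFS and sham hippocampal arrays (-0.111, -0.287 and -0.025) were not paired.

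Alternatives were other filters on signal, a fit of only the 6 arrays compared, centring on medians, quantile normalization, trend and robust eBayes, array weights, averaging a gene over its rows, replicate number as a block (fixed, or random), a threshold of 0.1, each array left out in turn and, chosen after seeing the data, both sham arrays numbered 1 left out.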

Additional observations from a re-analysis of the deposited data

How the results depend on the processing

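After TFS, 0 guidance genes passed limma's test under every alternative run, including the replicate block. The fixed block put TFS and sham arrays of one number together, although the labels do not state such a pairing. Of 10 genes named there, 3 changed sign, each far from the threshold: Sema6b was at -0.0041 after quantile normalization, Slit3 at -0.013 when a gene was averaged over its rows, and Ntn4 at 0.0016 without TFS array 3, within a range of -0.089 to 0.0016 over the single arrays left out. The Slit3 rows themselves differ (0.07 for the brighter and -0.10 for the dimmer). The Ntn4 difference came from TFS array 3, the array left out. For Sema6b the cause was not tested.

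Between the regions the alternatives were followed for the 29 genes past the test, of which 0 changed sign and 15 kept their call in every setting that included them. With the replicate number as a fixed block on 6 arrays 17 genes passed, 13 higher and 4 lower, and as a random block on 9 arrays 36 did (27 higher and 9 lower). Without both sham arrays numbered 1, 19 passed, 13 higher and 6 lower. Genes lower in hippocampus numbered 4 with the filter at the 75th percentile and 3 with the filter at the negative controls, where Sema3a, Efna5 and Sema3f, and under the second filter also Efnb2, Ephb3 and Plxnd1, are too dim to be tested, and Ephb6 and Sema7a now passed under the second. Leaving out 1 array at a time gave 21 to 32 genes, 15 to 24 higher and 6 to 9 lower. The 6 arrays alone gave 21, and a threshold of 0.1 gave 37.

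Signal over background limits 41 of the 71 genes, whose differences do not measure transcript ratios. It also limits the region differences of Nrp1, Nrp2, Epha7, Dcc, Slit2, Unc5b and Unc5c, whose sham cortex means lay under the same cutoff. With 3 arrays a group, and pairing not stated in the labels, the calls lost on leaving out 1 array (Robo1, Robo2, Unc5b, Ntng2, Plxnb1, Efna3, Efnb3, Epha4 and Sema3c) depend on the arrays included.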
